A study of Mus musculus with 20 samples.

Results

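The liver expression of 10 genes of eicosanoid and epoxide metabolism was followed in 20 mice: *Ephx1*, *Ephx2*, *Cyp2j5*, *Cyp2j6*, *Alox5ap*, *Ltc4s*, *Lta4h*, *Ptgs1*, *Ptgr1* and *Hpgd*. They were matched by symbol, and all 10 were found among the 55487 genes of the deposited count table. All mice were female C57BL/6J, 28 weeks old, with 1 sequenced liver per mouse. The chow-fed mice stayed on chow throughout (n = 5). The other 15 ate a high-fat diet (HFD) from 8 weeks of age. For the last 10 weeks, 50% of the protein of their HFD came from salmon fishmeal, salmon filet or beef and the rest from casein. The labels give n = 5 for fishmeal, n = 6 for salmon filet and n = 4 for beef, with 1 mouse in doubt, as described below. Chow and HFD thus differed in the whole diet, whereas the 3 HFD groups differed in the source of part of the protein and in what came with it. The HFDs also differed in added soybean oil, fatty acids and cholesterol, and the fishmeal diet held the most cholesterol.

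One library goes against its label. Mouse 31 is labelled salmon filet, but the count table names it beef, so each comparison with salmon filet or beef is given as labelled and again with mouse 31 as beef (5 salmon filet and 5 beef mice). The paper of the study states that 5 mice of each diet group were sequenced, which the naming in the count table gives and the labels do not. The groups of HFD versus chow stay the same either way, and fishmeal versus chow does not include this mouse. The libraries held 42526234 to 70266136 counted reads. Protein-coding genes took 93.2% to 95.6% of the reads in 19 libraries and 84.3% in beef mouse 35. Hepatocyte marker genes (such as *Alb* and *Apoa1*) summed to 95350 to 115899 CPM (a gene's count scaled to its library's total) in chow-fed and 84713 to 112672 CPM in HFD-fed mice. Of 4 kidney markers, *Umod*, *Kap* and *Aqp2* were at 0 in all libraries. The sum of the 4, all from *Slc34a1*, was at most 0.0876 CPM.

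Eicosanoids are signalling lipids made from arachidonic acid and related polyunsaturated fatty acids after phospholipases release them from membranes. Cyclooxygenases lead to prostaglandins, lipoxygenases to leukotrienes, and cytochrome P450 epoxygenases to epoxides, which soluble epoxide hydrolase turns into diols. The liver also inactivates prostaglandins and leukotrienes that reach it in the blood, and its microsomal epoxide hydrolase detoxifies epoxides of foreign compounds.

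The results turn on 3 of the genes: *Ephx1* and *Ptgr1*, which were lower in HFD-fed mice, and *Hpgd*, which was higher with fishmeal. The 250 bases before the RefSeq start of each (GRCm38.p6) are shown as the sequence next to that annotated start. Which start these livers used was not tested. Capitals mark matches to any of 6 short motifs searched on both strands: the CCAAT box, the GC box GGGCGG, the TATA box TATAAA, the E-box CACGTG, the antioxidant response element core TGACNNNGC and the direct repeat 1 element bound by nuclear receptors. The RefSeq start of *Ephx1* lies downstream of its most upstream start in GENCODE.
Ephx1, minus strand, chr1:181017570-181017819: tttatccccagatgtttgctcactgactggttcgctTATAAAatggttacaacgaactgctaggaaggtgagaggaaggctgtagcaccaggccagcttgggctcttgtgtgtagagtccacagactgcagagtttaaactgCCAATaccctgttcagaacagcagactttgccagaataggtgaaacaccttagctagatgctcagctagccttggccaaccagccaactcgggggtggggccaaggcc
Ptgr1, minus strand, chr4:58987079-58987328: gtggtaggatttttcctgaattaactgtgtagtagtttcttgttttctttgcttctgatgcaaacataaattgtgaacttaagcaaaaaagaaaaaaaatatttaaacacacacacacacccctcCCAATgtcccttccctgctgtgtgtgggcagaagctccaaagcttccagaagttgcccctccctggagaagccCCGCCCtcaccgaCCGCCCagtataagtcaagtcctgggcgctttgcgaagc
Hpgd, plus strand, chr8:56294302-56294551: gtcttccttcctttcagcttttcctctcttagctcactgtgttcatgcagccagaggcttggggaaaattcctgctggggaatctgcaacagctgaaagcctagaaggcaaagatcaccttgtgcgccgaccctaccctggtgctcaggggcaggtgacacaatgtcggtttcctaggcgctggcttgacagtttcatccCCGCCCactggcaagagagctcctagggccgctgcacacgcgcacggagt

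*Ephx1* and *Ptgr1* each held a CCAAT box, 108 and 125 bases before the start, a motif present in 33.8% of the 32851 mouse promoter windows of this length. *Ptgr1* held the GC box 2 times and *Hpgd* once (32.7% of windows). The antioxidant element core (10.2% of windows) and the direct repeat (0.0335%) did not occur in the windows of the 8 genes that had an entry. The *Ephx1* window held TATAAA 214 bases before the start (12.4% of windows). These matches are letters in a window and not binding sites.

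In GENCODE M21 (GRCm38), *Cyp2j5* (chr4:96628773-96664154) and *Cyp2j6* (chr4:96516138-96553661) are neighbours on the minus strand, and *Ptgr1* (chr4:58965439-58987119, minus strand) lies on the same chromosome. *Ephx1* lies at chr1:180976210-181020904 and *Ephx2* at chr14:66084374-66124500, both on the minus strand. *Hpgd* (chr8:56294585-56321043) and *Alox5ap* (chr5:149264767-149288153) lie on the plus strand. *Lta4h* (chr10:93453411-93484875) and *Ptgs1* (chr2:36230426-36252272) are also on the plus strand, and *Ltc4s* (chr11:50236461-50238616) is on the minus strand. *Cyp2j5* and *Cyp2j6* transcripts aligned over 1510 bases at 79.9% identity, and *Cyp2j6* and its relative *Cyp2j9* over 1520 bases at 83.0%, so these paralogs differ at many positions. *Hpgd* overlaps *Gm45540*, a gene model of unproven status on its own strand, which took 0.744% to 5.18% as many reads as *Hpgd*.

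The levels of the genes, compared as deposited TPM, which are scaled by transcript length and library, spanned more than 3 orders of magnitude. *Cyp2j5*, a liver and kidney epoxygenase, was highest, with a median of 1004 TPM over the 20 livers (808 to 1281). *Ephx2*, soluble epoxide hydrolase (median 416 TPM, 276 to 525), and *Ephx1*, microsomal epoxide hydrolase (median 380 TPM, 216 to 599), followed. These neighbours in the order could not be separated, since *Ephx2* exceeded *Ephx1* in 12 of 20 livers.
*Hpgd*, which oxidises the 15-hydroxyl group of prostaglandins and so inactivates them, was next at a median of 179.8 TPM (126 to 264). *Cyp2j6*, another epoxygenase of the family, stood at a median of 44.4 TPM (32.1 to 58.0), below *Hpgd* in all 20 livers. The median ratio of *Cyp2j5* to *Cyp2j6* was 22.6 (18.6 to 26.1).

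The genes of leukotriene and prostaglandin synthesis were low, and so was *Ptgr1*, which acts in the breakdown of these products. *Lta4h*, which hydrolyses leukotriene A4 to B4, had a median of 10.2 TPM (8.29 to 11.4), and *Ptgs1*, the constitutive cyclooxygenase, 8.89 TPM (4.42 to 11.6). *Ptgr1*, which oxidises leukotriene B4 and reduces 15-keto prostaglandins, had a median of 3.12 TPM (1.98 to 7.92). *Alox5ap*, the protein that presents arachidonic acid to 5-lipoxygenase, had a median of 3.04 TPM (1.49 to 4.10) and lay below *Ptgr1* in 13 of 20 livers. *Ltc4s*, leukotriene C4 synthase, was lowest at 0.632 TPM (0.149 to 1.11), from 4 to 31 reads per library.

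**Figure D1:**
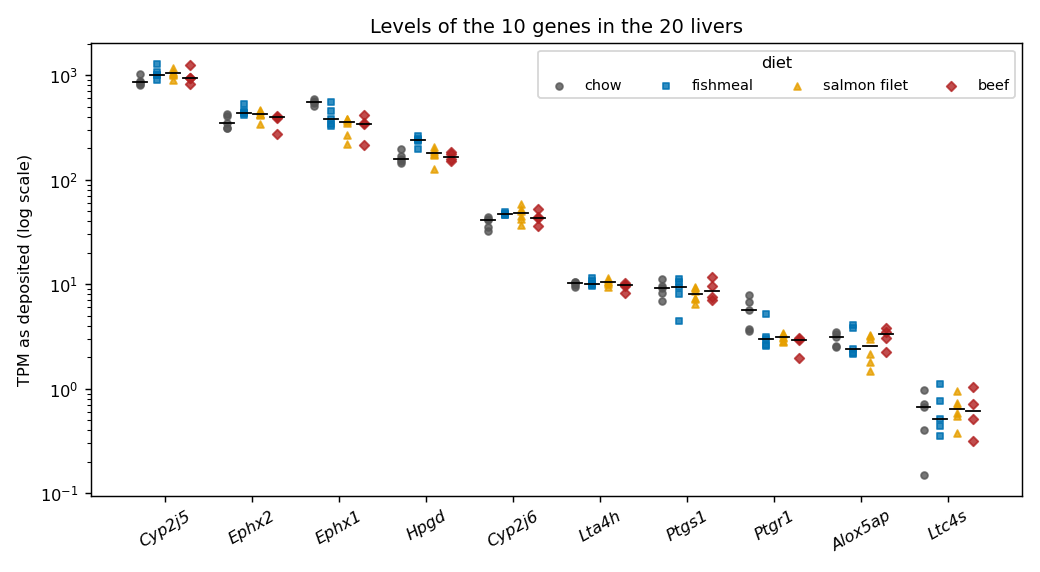
Deposited TPM (log axis) of the 10 genes, ordered by their median over all livers. Each point is 1 mouse, coloured by labelled diet, and black lines are group medians. *Cyp2j5* lies near 1000 TPM and *Ltc4s* near or below 1 in every diet group.

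HFD versus chow pooled the HFD groups against chow, so it tests their average difference and not a change shared by each diet. Of the 10 genes, 2 were called differentially expressed, *Ephx1* and *Ptgr1*, both lower in HFD-fed mice. Over all 17120 genes tested, 9.75% were called (777 higher and 892 lower). The test was the quasi-likelihood F-test of edgeR on counts, with Benjamini-Hochberg adjustment over all genes tested and a threshold of 0.05. The median log2 fold change was 0.13 over the 10 genes, 6 of them positive, and 0.0050 over all genes tested. For 0 of the 10 genes did the chow-fed mice lie all above or all below the HFD-fed mice, a separation that 1.58% of the 17120 genes showed.

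*Ephx1* hydrolyses epoxides of drugs and pollutants in the endoplasmic reticulum, and also acts on some fatty acid epoxides. In chow-fed mice it was at 419, 420.2, 437, 366 and 431 CPM (normalised by the trimmed mean of M-values, TMM). In fishmeal-fed mice it was at 319, 277, 344, 256 and 407 CPM, and in the 6 mice labelled salmon filet at 181 to 291 CPM, with a median of 270.3. The beef-fed mice had 255, 195, 317 and 285 CPM.
All 15 HFD-fed mice lay below the chow mean of 415 ± 28.3 CPM (SD, n = 5), and 14 lay below the lowest chow-fed mouse. The exception was fishmeal mouse 20. The log2 fold change of HFD versus chow was -0.59 ± 0.14 (SE), that is 1.5 times lower (edgeR, adjusted p = 0.0073). Leaving out any 1 of the 20 libraries kept the call, at log2 fold changes of -0.63 to -0.55.

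*Ptgr1*, also known as leukotriene B4 12-hydroxydehydrogenase, was at 5.17, 6.54, 3.32, 5.74 and 3.32 CPM in the chow-fed mice. Fishmeal-fed mice had 3.49, 2.55, 2.30, 4.85 and 2.23 CPM, the salmon filet mice 2.48 to 3.21 (median 2.80), and beef-fed mice 2.56, 2.10, 2.79 and 2.91 CPM. The chow-fed mice were split, with 2 of 5 at 3.32 CPM. Even so, 13 of 15 HFD-fed mice lay below the lowest chow-fed mouse, the exceptions being fishmeal mice 12 and 16.
The means were 4.82 ± 1.45 CPM (SD, n = 5) in chow-fed and 2.84 ± 0.670 CPM (SD, n = 15) in HFD-fed mice. The log2 fold change was -0.77 ± 0.17 (SE), or 1.7 times lower (edgeR, adjusted p = 0.0047), and the call held without any 1 library, with a largest adjusted p of 0.032. *Ptgr1* rested on 96 to 402 reads per library.

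**Figure D2:**
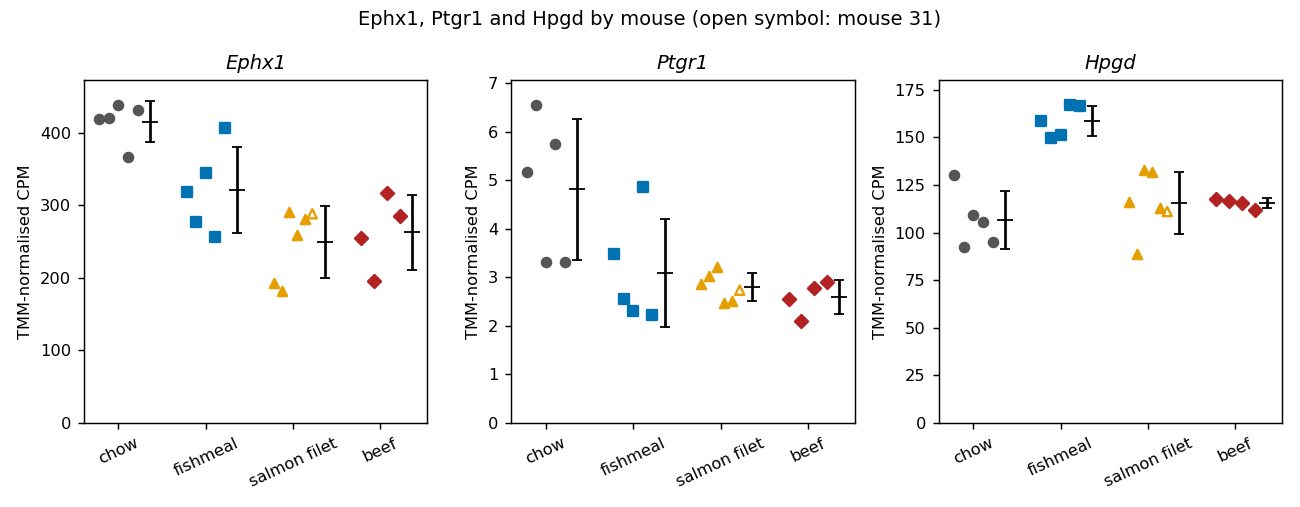
TMM-normalised CPM of *Ephx1*, *Ptgr1* and *Hpgd* in each mouse by diet, with group mean ± SD as bars; the open symbol is mouse 31, labelled salmon filet and named beef in the count table. For *Ephx1*, fishmeal mouse 20 alone of the HFD-fed mice reaches the chow range, and for *Hpgd* the 5 fishmeal-fed mice lie above all others.

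The core clock differed between these livers and moved with the diet. A clock index, the mean log2 CPM of 9 genes such as *Nr1d1*, *Dbp* and *Per2* minus that of 5 genes such as *Npas2* and *Nfil3*, was -2.69 to -0.83 in chow-fed and -1.96 to 3.52 in HFD-fed mice. HFD-fed mice below the highest chow-fed index were salmon filet mice 22 and 31 alone. With this index as a covariate, *Ephx1* was still called in HFD versus chow (log2 fold change -0.77, edgeR adjusted p = 0.022), whereas *Ptgr1* was not (-0.53, adjusted p = 0.28). The 2 chow-fed mice with the lowest *Ptgr1*, mice 5 and 10, had the highest clock indices of their group, -0.83 and -1.74. The part of the clock in the *Ephx1* and *Ptgr1* results was not tested.

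**Figure D3:**
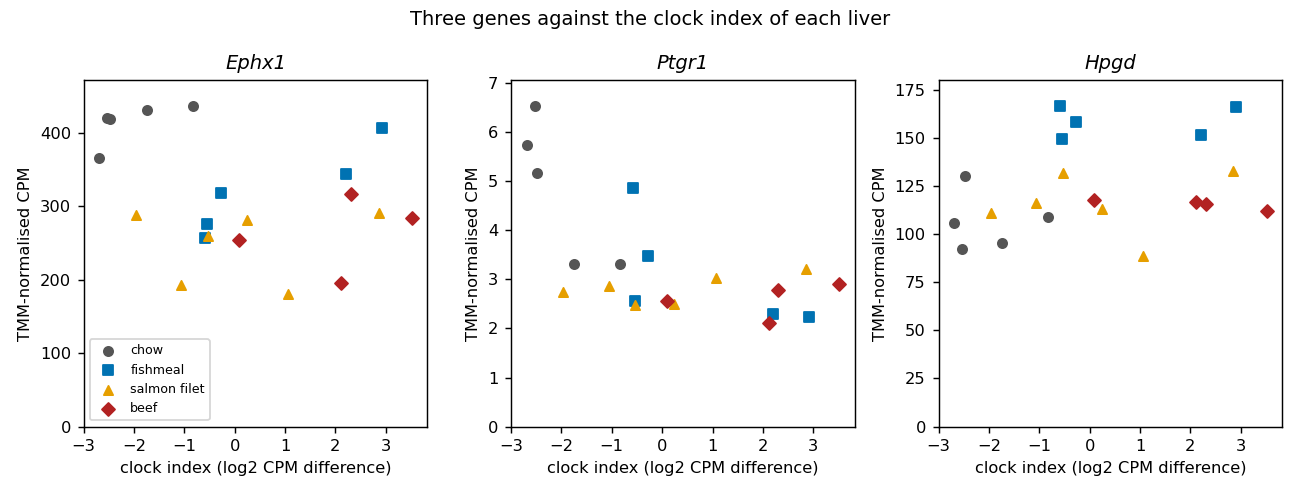
TMM-normalised CPM of *Ephx1*, *Ptgr1* and *Hpgd* (y) against the clock index of each liver (x, difference of mean log2 CPM), coloured by labelled diet. Chow-fed mice occupy the low end of the index, and *Hpgd* is high in fishmeal-fed mice with indices from -0.58 to 2.92.

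The other enzymes of epoxide formation and hydrolysis had positive log2 fold changes in HFD versus chow that did not pass the threshold. *Cyp2j6* was at 58.8, 56.9, 62.3, 43.2 and 50.3 CPM in chow-fed mice, with a mean of 54.3 ± 7.59 (SD, n = 5), and at 55.3 to 81.1 CPM in HFD-fed mice (median 63.7). All 15 HFD-fed mice exceeded the chow mean and 11 exceeded the highest chow-fed mouse. Its log2 fold change was 0.30 ± 0.098 (SE; edgeR, adjusted p = 0.056).
*Cyp2j5* was at 795 ± 105 CPM (SD, n = 5) in chow-fed and 966 ± 98.3 CPM (SD, n = 15) in HFD-fed mice. All 15 exceeded the chow mean and 7 exceeded the highest chow-fed mouse. Its log2 fold change was 0.28 ± 0.092 (SE; edgeR, adjusted p = 0.059). Both *Cyp2j* genes passed the threshold with DESeq2 (adjusted p = 0.019 for *Cyp2j5* and 0.030 for *Cyp2j6*) and with a correction for GC content and length (0.0023 and 0.021). These fits called 2161 and 2536 of the 17120 genes tested. *Cyp2j6* also passed among protein-coding genes alone and among genes with at least 10 counts in every library. Without 1 library, *Cyp2j5* was called in 1 of 20 fits and *Cyp2j6* in 3.
*Ephx2* was at 421, 282, 351, 292 and 397 CPM in chow-fed mice and at 318 to 494 CPM (median 418) in HFD-fed mice. The groups overlapped, although 14 of 15 HFD-fed mice exceeded the chow mean of 349 ± 61.9 CPM (SD, n = 5). The log2 fold change was 0.24 ± 0.10 (SE; edgeR, adjusted p = 0.14).
*Hpgd*, described with the fishmeal comparisons, had 0.28 ± 0.13 (SE; edgeR, adjusted p = 0.17) over all HFD-fed mice.

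The 4 genes of leukotriene and prostaglandin synthesis did not pass the threshold in HFD versus chow. *Alox5ap* was at 1.44 to 1.93 CPM in chow-fed mice (median 1.59) and 0.807 to 2.24 CPM in HFD-fed mice (median 1.64), and *Ptgs1* at 11.0 to 17.3 (median 13.5) and 8.25 to 17.7 CPM (median 13.3). The ranges of HFD-fed mice took in both ends of the chow range for both genes. *Lta4h* was the most even gene among mice, with a coefficient of variation of 6.82% over all livers, against 40.5% for *Ltc4s* and 37.3% for *Ptgr1*.
The log2 fold changes were -0.031 ± 0.20 (SE) for *Alox5ap*, -0.051 ± 0.13 for *Ptgs1*, 0.063 ± 0.063 for *Lta4h* and 0.20 ± 0.32 for *Ltc4s* (edgeR, adjusted p from 0.58 to 0.95). At the depth of *Ltc4s*, a change of the size seen for *Ephx1* was less than 2 standard errors and could not be detected.
These 4 genes are known best from white blood cells and platelets, so markers of such cells are given beside them. Macrophage and Kupffer cell markers (6 genes) summed to 182 to 448 CPM in chow-fed and 175 to 357 CPM in HFD-fed mice, with 0 of 6 called, and platelet markers (5 genes) to 2.08 to 3.39 and 2.05 to 4.20 CPM, with 0 of 3 tested called. B cell markers (4 genes) summed to 4.56 to 11.1 CPM in chow-fed and 1.6 to 4.49 CPM in HFD-fed mice, and all 4 were called lower. T cell markers (5 genes) summed to 2.44 to 4.57 and 1.17 to 2.98 CPM, with 3 called lower. Mast cell markers (4 genes) summed to at most 1.09 CPM in any library, and neutrophil markers (6 genes) to at most 2.6 CPM. The neutrophil marker *Ly6g* was at 0 in all salmon filet and beef mice, and the mast cell marker *Cma1* in all beef mice. In whole liver, fewer cells of a type and less RNA per cell cannot be told apart, and the part of cell composition in these values was not tested.

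Fishmeal versus chow called 1 of the 10 genes, *Hpgd*, as higher, where 3.38% of 16471 genes tested were called. *Hpgd* encodes 15-hydroxyprostaglandin dehydrogenase, the first step of prostaglandin inactivation. It was at 131, 92.4, 109, 106 and 95.3 CPM in chow-fed mice. The fishmeal-fed mice had 158, 149.7, 151, 167 and 166 CPM. Salmon filet mice had 88.9 to 133 CPM (median 115) and beef-fed mice 118, 117, 116 and 112 CPM.
Every fishmeal-fed mouse lay above each of the other 15 mice, the highest of which was a salmon filet mouse at 133 CPM. Of the 10 genes *Hpgd* alone showed this separation, which 0.0175% of 17120 genes showed (3 genes). In either direction, all above or all below, 0.134% did (23 genes). The log2 fold change of fishmeal versus chow was 0.57 ± 0.11 (SE), or 1.48 times higher (edgeR, adjusted p = 0.012), and it was called in all 10 fits that left out 1 library. With the clock index as a covariate it was 0.55 and not called (adjusted p = 0.32), in a fit that called 44 genes in all.
In deposited TPM, which are not corrected for composition, fishmeal-fed mice had 196 to 264 and salmon filet mice 126 to 206 TPM of *Hpgd*, so that the groups overlapped on that scale.

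The other genes did not pass the threshold in fishmeal versus chow. *Ephx1* had a log2 fold change of -0.38 ± 0.13 (SE; edgeR, adjusted p = 0.15) and *Ptgr1* -0.65 ± 0.26 (adjusted p = 0.22). *Ephx2* had 0.37 ± 0.13 (adjusted p = 0.15), and *Cyp2j5* and *Cyp2j6* 0.31 ± 0.13 and 0.33 ± 0.12 (adjusted p = 0.22 and 0.16). The median over the 10 genes was 0.14, against -0.0055 over all genes tested.

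Salmon filet versus chow, as labelled, called 2 of the 10 genes, *Ephx1* and *Ptgr1*, both lower, where 4.46% of 16605 genes were called. *Ephx1* averaged 249 ± 49.3 CPM (SD, n = 6), and all 6 mice lay below the lowest chow-fed mouse. Its log2 fold change was -0.74 ± 0.13 (SE; edgeR, adjusted p = 0.011). That of *Ptgr1* was -0.79 ± 0.18 (adjusted p = 0.031), a call lost without chow mouse 1, 2 or 7 or salmon filet mouse 22, 26 or 27 (adjusted p up to 0.080) and kept without each of the other 5.
With mouse 31 as beef, 4.42% of 16475 genes were called, again with *Ephx1* (-0.79, adjusted p = 0.014) and *Ptgr1* (-0.78, adjusted p = 0.046) among them. *Hpgd* had a log2 fold change of 0.11 ± 0.12 (adjusted p = 0.61) as labelled.

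Beef versus chow, as labelled, called 1 of the 10 genes, *Ephx1*, as lower, where 2.48% of 16559 genes were called. Its mean was 263 ± 51.6 CPM (SD, n = 4), with a log2 fold change of -0.66 ± 0.14 (SE; edgeR, adjusted p = 0.034). *Ptgr1* had -0.90 ± 0.23 (adjusted p = 0.068). The *Ephx1* call was lost without chow mouse 1, 2, 5, 7 or 10 or beef mouse 40 (adjusted p up to 0.085), and that of *Ptgr1* was gained without chow mouse 5 (adjusted p = 0.044).
With mouse 31 as beef, 3.05% of 16339 genes were called, and both *Ephx1* (-0.63, adjusted p = 0.022) and *Ptgr1* (-0.89, adjusted p = 0.041) were among them. *Hpgd* had 0.11 ± 0.11 (adjusted p = 0.64) as labelled. The comparisons with chow share the same 5 chow-fed mice.
With the clock index as a covariate, neither gene was called in salmon filet or beef versus chow, in fits that called 64 and 0 genes in all. The log2 fold changes of *Ephx1* in these fits were -0.78 ± 0.18 and -0.86 ± 0.31 (SE). Those of *Ptgr1* were -0.72 ± 0.26 and -0.37 ± 0.56. The clock index did not overlap between chow-fed (-2.69 to -0.83) and beef-fed mice (0.090 to 3.52), so diet and index cannot be told apart there.

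**Figure D4:**
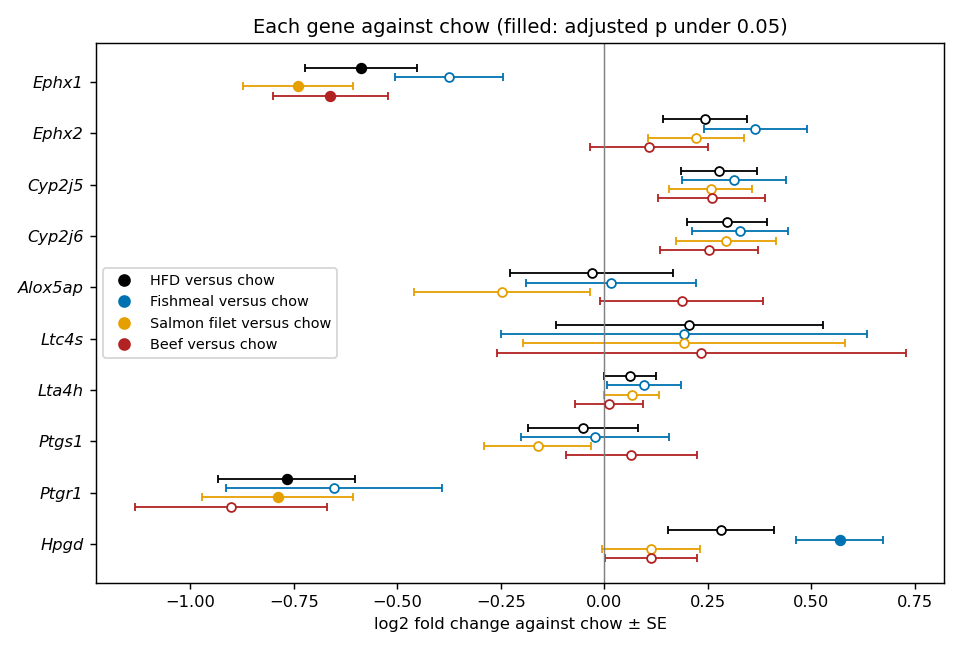
Log2 fold change against chow (x, ± SE) of each of the 10 genes for all HFD-fed mice and for each HFD group as labelled; filled points passed an adjusted p of 0.05. *Ephx1* and *Ptgr1* lie left of 0 in all 4 comparisons, and *Hpgd* is filled for fishmeal versus chow. *Ptgr1* in beef versus chow, open here, passed with mouse 31 as beef (edgeR, adjusted p = 0.041).

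Between the HFD groups, which compare the protein sources together with the fat and cholesterol they brought, 0 of the 10 genes were called in the planned comparisons, where 26 of 16548 genes (0.157%) were called for fishmeal versus salmon filet, 1 of 16480 (0.00607%) for fishmeal versus beef and 0 of 16509 (0%) for salmon filet versus beef. At an unadjusted p under 0.05, edgeR listed 2, 1 and 0 of the 10 genes, against 702, 384 and 613 of all genes. DESeq2 called *Hpgd* in fishmeal versus salmon filet (adjusted p = 0.0078), in a fit that called 82 of 16548 genes. It also called *Hpgd* in fishmeal versus beef (adjusted p = 0.00025), where 29 of 16480 genes were called. In salmon filet versus beef it called 0 of the 10, and 2 genes in all.
With edgeR, the *Hpgd* log2 fold change of fishmeal was 0.47 ± 0.10 (SE) against salmon filet (adjusted p = 0.16) and 0.45 ± 0.10 against beef (adjusted p = 0.50). With mouse 31 as beef, 0.17% and 0.0245% of genes were called, with 0 of the 10 genes among them. The *Hpgd* values were then 0.44 ± 0.11 (edgeR, adjusted p = 0.33) and 0.47 ± 0.088 (adjusted p = 0.17). In salmon filet versus beef, 0 of 16212 genes were called with mouse 31 as beef.
A comparison of fishmeal with the other 10 HFD-fed mice, added after these values were seen, does not depend on the group of mouse 31. It called 1 of the 10 genes, *Hpgd*, where 0.155% of 16795 genes were called. The log2 fold change was 0.47 ± 0.084 (SE), or 1.38 times higher (edgeR, adjusted p = 0.029). The call was lost without fishmeal mouse 12, 13, 14, 16 or 20 or salmon filet mouse 22, 27 or 31 (adjusted p up to 0.12) and kept without each of the other 7. It was also lost with a correction for GC content and length (0.38, adjusted p = 0.098) and with limma on log2 TPM (0.45, adjusted p = 0.19), and kept with the clock index as a covariate (0.47, adjusted p = 0.030).
*Ephx1* had a log2 fold change of 0.34 ± 0.14 (SE) in the same comparison, with an unadjusted p of 0.027 and an adjusted p of 0.997 (edgeR), so its lower level in salmon filet and beef mice than in fishmeal-fed mice did not pass the threshold. *Ephx2* had 0.20 ± 0.085 (unadjusted p = 0.031, adjusted p = 0.997).

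Around the 10 genes, 76 other genes of the pathway were listed, of which 55 had enough reads to be tested in HFD versus chow. Among them 12 were called, 1 higher and 11 lower, where 9.75% of all genes tested were called. The median log2 fold change of the 55 was -0.10.
The largest group was the Cyp2c family, cytochromes that include arachidonic acid epoxygenases, with 6 of 10 tested genes lower and 0 higher. *Cyp2c44* averaged 418 ± 75.5 CPM (SD, n = 5) with chow and 235 ± 51.1 CPM (SD, n = 15) with HFD. Its change on the log2 scale was -0.83 ± 0.14 (SE; edgeR, adjusted p = 0.00061). *Cyp2c55* (-1.71), *Cyp2c54* (-1.29), *Cyp2c40* (-0.75), *Cyp2c37* (-0.55) and *Cyp2c29* (-0.50) were the others. *Cyp2c55* varied widely, at 1.68 to 9.47 CPM with chow and 0.802 to 3.69 CPM with HFD, so the groups overlapped. By diet as labelled, 1 of 10 was called lower in fishmeal versus chow (*Cyp2c40*) and 5 of 10 each in salmon filet and beef versus chow. Fishmeal versus the other HFD-fed mice called 0 of the 10 by edgeR, so the diets were not shown to differ in these genes. An unadjusted p under 0.05 was found for 4 of the 10, and for 4.03% of all genes tested. These genes are close paralogs, and how reads matching several genes were counted is not given in the sources used here, so values of single Cyp2c genes are uncertain.
Of 7 tested genes of prostanoid degradation and transport, 2 were called, both of them carriers and both lower. A further carrier in this list was not called, and the median log2 fold change of the 7 was -0.20. *Slco2a1*, the prostaglandin uptake transporter that works with *Hpgd* in clearing prostaglandins, was at 141 to 168 CPM in chow-fed and 73.5 to 121 CPM in HFD-fed mice, without overlap. Its log2 fold change was -0.81 ± 0.095 (SE; edgeR, adjusted p = 9.6e-06). *Abcc4*, an efflux pump that exports prostaglandins, was at 5.97 to 7.84 CPM with chow and 1.99 to 5.50 CPM with HFD, also without overlap. Its change was -0.92 ± 0.18 (SE; edgeR, adjusted p = 0.0026). Such a separation of chow from HFD was seen in 1.58% of 17120 genes. *Slco2a1* and *Abcc4* were also called lower in each HFD group as labelled. The log2 fold changes of *Slco2a1* were -0.83, -0.80 and -0.81 for fishmeal, salmon filet and beef. With the clock index as a covariate, beef versus chow called 0 of 16559 genes, so its calls of these carriers and of the Cyp2c genes were lost. Markers of sinusoidal endothelium (5 genes) summed to 185 to 206 CPM in chow-fed and 149.6 to 208 CPM in HFD-fed mice, and 2 of 5 were called lower, *Clec4g* (-0.29) and *Fcgr2b* (-0.34). Cholangiocyte markers (5 genes) summed to 42.2 to 78.5 and 31.8 to 91.2 CPM, with 1 of 5 called lower, *Sox9* (-0.61). The part of these cells in the carrier values was not tested.
Of 10 tested phospholipase genes, the lysosomal *Pla2g15* was higher (0.38 ± 0.11 SE, adjusted p = 0.029) and *Pla2g16* was lower (-0.37 ± 0.10, adjusted p = 0.021). *Alox12*, a 12-lipoxygenase, was lower (-0.98 ± 0.19, adjusted p = 0.0020) at a mean of 0.864 ± 0.189 CPM (SD, n = 5) even in chow-fed mice, as 1 of 7 tested lipoxygenase and leukotriene genes. *Fpr2*, a receptor for lipoxins and peptides, was lower (-0.999 ± 0.31, edgeR adjusted p = 0.041) as 1 of 12 tested receptors. Its ranges overlapped at low levels, 0.298 to 2.05 CPM with chow and 0.220 to 0.814 CPM with HFD. None of 8 tested genes of prostanoid synthesis was called by edgeR. An unadjusted p under 0.05 was found for 2 of the 8, and for 24.4% of all genes tested.

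**Figure D5:**
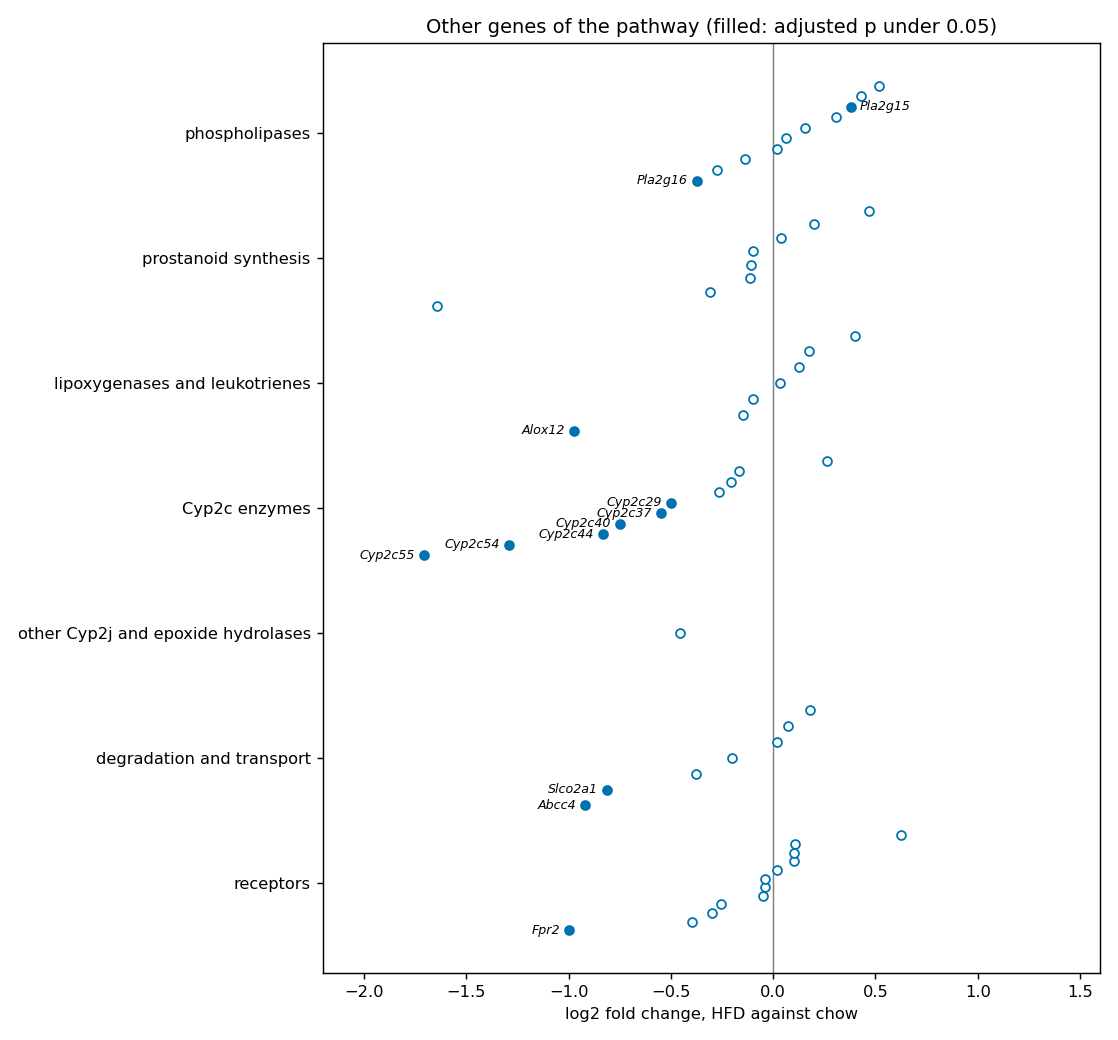
Log2 fold change of HFD versus chow (x) of the 55 tested pathway genes outside the 10, by list; filled points are genes with an adjusted p under 0.05, named beside them. The 6 called Cyp2c enzymes and both called carriers lie left of 0.

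Genes that followed the same pattern were sought among 11559 other protein-coding genes with a mean of at least 1 CPM, by Pearson's r of log2 CPM over the 20 libraries, for the 3 members with the smallest adjusted p in HFD versus chow. The r of deviations from the 4 group means is given second, as a description without a test. For *Ptgr1* they were *Cyp2c55* (0.896 and 0.791), *Acmsd* (0.894 and 0.819) and *Gstm3* (0.885 and 0.75). For *Ephx1* they were *Ugt1a9* (0.83 and 0.529), *Hsf2* (0.82 and 0.597) and *Adh7* (0.819 and 0.709). For *Cyp2j6* they were *Rpa1* (0.847 and 0.793), *Agxt2* (0.80 and 0.663) and *Asrgl1* (0.792 and 0.657). For these 9 genes r was smaller within groups than over all libraries.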

How the data were processed

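Liver RNA was sequenced from 20 mice by strand-specific, paired-end mRNA sequencing. Per the labels, the authors aligned reads with HISAT2 1.2.1 and deposited raw featureCounts 1.4.6-p1 counts per gene, with no normalisation, and TPM values. Settings for strand and multi-mapping reads are not given in the sources used here.

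Counts were tested with the quasi-likelihood F-test of edgeR 4.0 in R 4.3, with TMM factors, the filterByExpr minimum of 10 counts, the groups of each comparison alone, and p-values adjusted by Benjamini-Hochberg over every tested gene (threshold 0.05). CPM were TMM-normalised. Alternatives used DESeq2 1.42 and limma 3.58 on log2(TPM + 1). Scripts were tested on simulated data. The 41 pairs of libraries within groups all differed beyond counting noise (lowest chi-square per gene 35.1). Transcripts were compared with blastn 2.17.

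The 10 genes and the lists were chosen with earlier results of these data known. Named outside the 10 were every pathway gene called in HFD versus chow or between HFD groups, and for the 3 members of smallest adjusted p the 3 genes of most similar pattern. Of 55487 identifiers, 55141 were found in GENCODE M21.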

Additional observations from a re-analysis of the deposited data

Results flagged for a closer look

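*Hpgd* had a log2 fold change of 0.467 in fishmeal versus the other HFD-fed mice (edgeR, adjusted p = 0.029). This comparison was built after the fishmeal values were seen to stand apart, so it describes that separation and is no independent test of it. The planned comparisons did not call *Hpgd* (edgeR, adjusted p = 0.16 against salmon filet and 0.50 against beef). The call was lost in 8 of 15 fits without 1 library, with the GC and length correction and with limma.

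Of 40 sets of values (10 genes in 4 groups), 3 held a library far from the rest of its group, where chance alone gives about 1 in 20. *Ephx1* was lower in chow mouse 7 (366 CPM, the nearest chow-fed mouse at 419), a gap of 0.737 of the group's range. *Alox5ap* was lower in beef mouse 32 (1.24 CPM, nearest 2.04), a gap of 0.887 of the range. *Lta4h* was higher in chow mouse 1 (25.3 CPM, nearest 23.5), a gap of 0.749 of the range.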

How the results depend on the processing

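In HFD versus chow, where 2 of the 10 genes were called, 4 were called with DESeq2, 5 with a GC and length correction, 3 among protein-coding genes alone or genes with at least 10 counts in every library, and 1 with the clock index as a covariate, and 2 to 3 without any 1 library. Fishmeal versus chow went from 1 to 0 with the clock index. Salmon filet versus chow (740 of all genes called) went from 2 to 1 with limma on log2 TPM (437) and to 0 with the clock index (64). It went to 3 with the GC and length correction (1262), and held 1 to 2 without 1 library. Beef versus chow (411 of all genes called) went from 1 to 2 with DESeq2 (1122), with all 4 groups in one fit (780), with the GC and length correction (1008) and with mouse 31 as beef (499). It went to 0 with limma (276) and with the clock index (0), and held 0 to 1 without 1 library. Fishmeal versus salmon filet and fishmeal versus beef each went from 0 to 1 with DESeq2. Fishmeal versus the other HFD-fed mice went from 1 to 0 with limma and with the GC and length correction, and held 0 to 1 without 1 library.

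Directions turned for *Ptgr1* in fishmeal versus chow with the clock index (log2 fold change 0.10) and for *Ephx2* in beef versus chow with the clock index (-0.0090), neither called. Genes of small change turned in at least 1 setting too, with no call. Beef versus chow reached -1.65 for *Ltc4s* (as reported 0.23), -0.44 for *Alox5ap* (0.19), -0.079 for *Lta4h* (0.010) and -0.026 for *Ptgs1* (0.066), fishmeal versus chow -0.053 for *Alox5ap* (0.016), and salmon filet versus chow -0.029 for *Ltc4s* (0.19). Without 1 library, HFD versus chow ranged from -0.073 to 0.027 for *Alox5ap*, -0.049 to 0.48 for *Ltc4s* and -0.12 to 0.059 for *Ptgs1*. The cause of these changes was not tested.

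Counts over all genes moved as well. HFD versus chow called 1669 genes (777 higher, 892 lower), from 311 with the clock index to 2536 with the GC and length correction, 2161 with DESeq2, 986, 1070 and 1049 without chow mouse 1, 2 and 7, and 1220 (414 higher, 806 lower) with limma. Fishmeal versus chow called 556 (238 higher), 44 with the clock index, 1175 with DESeq2, 1049 with the GC and length correction, 837 with all groups in one fit, 367 (110 higher) with limma and 288 to 319 without chow mouse 2 or 7 or fishmeal mouse 14 or 20. Salmon filet versus chow called 740, 64 with the clock index, 1485 with DESeq2, 1262 with the GC and length correction, 437 with limma and 311 to 490 without chow mouse 1, 2 or 7 or salmon filet mouse 22, 25, 26 or 27. Beef versus chow called 411 (194 higher), 0 with the clock index, 1122 with DESeq2, 1008 with the GC and length correction, 780 with all groups in one fit, 499 with mouse 31 as beef, 276 (82 higher) with limma 634 without beef mouse 32, and 100 to 200 without chow mouse 2 or 7 or beef mouse 39 or 40. Fishmeal versus salmon filet called 26, 82 with DESeq2, 42 among genes with at least 1 count and 41 without fishmeal mouse 12. Fishmeal versus beef called 1, 29 with DESeq2, 10 among genes with at least 1 count, 8 with the clock index, 4 with all groups in one fit or mouse 31 as beef, 0 with limma and 0 to 4 without 1 library. Salmon filet versus beef called 0, and 2 with DESeq2. Fishmeal versus the other HFD-fed mice called 26, 61 with DESeq2 and 13 to 17 without fishmeal mouse 13, 14 or 20 or salmon filet mouse 22 or 27.

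No paired analysis was possible because the mouse numbers are unique to each mouse and shared by no groups. Depth limits *Ltc4s* (4 to 31 reads) most. Diet and clock index were related, groups held 4 to 6 mice, and the time of death of each mouse is not given in the sources used here.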
